A study of Homo sapiens with 8 samples.

Results

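*YAP1* and *WWTR1*, which encode the transcriptional coactivators YAP and TAZ, were examined together with *AMOT*, *AMOTL1*, *AMOTL2*, *PTPN14* and *WBP2*, whose products bind YAP or TAZ. These 7 genes were taken by symbol from the 20030 rows of the expression data, with earlier results of these data known. All 7 had a value in every library, and 6 of them passed the filter on low values that left 10677 genes to test. *AMOT* did not pass it.

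RNA was sequenced from 8 libraries of HCT-116, a human colorectal cancer cell line, after transient transfection with siRNA, to compare the transcripts that depend on the homeobox factor HHEX with those that depend on YAP/TAZ and TEAD. Of these, 2 received the control siRNA (siNC), 3 an siRNA to *HHEX* (siHHEX), 2 a mixture that targets *YAP1* and *WWTR1* together (siYAP/TAZ), and 1 a mixture that targets *TEAD1* to *TEAD4* (siTEAD1/2/3/4). No other allele or agent is named for these groups, which share 1 parental line. The numbers of the siHHEX and siYAP/TAZ libraries match the numbers of the siRNAs, so that a knockdown's replicates were also made with different siRNAs, and no source says whether the libraries came from separate cultures. The p values below therefore measure the spread between these libraries only.

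Levels are given in FPKM, which divides the fragments of each gene by gene length and by library total, so that levels of different genes can be set side by side within a library. Between libraries they depend on the total, since no further scaling is stated. Library sums ranged from 331663 FPKM (siYAP/TAZ 1) to 383423 FPKM (siHHEX 3). Read numbers were unknown. An estimate of depth from the spacing of the lowest values gave 0.947 to 1.07 times that of siNC 1. Its search kept only ratios near 1, so it could not have shown a larger difference in depth. In bulk RNA of this kind, fewer cells that express a gene and less of its RNA per cell cannot be told apart. Epithelial markers were abundant in every library, with *KRT8* at 897 FPKM or more and *EPCAM* at 116 FPKM or more. Of the colorectal markers, *CDX2* was between 3.86 and 6.24 FPKM, *KRT20* between 0.577 and 1.62 FPKM, *VIL1* and *LGALS4* were at most 0.0335 and 0.132 FPKM, and *CDX1* was listed at 0. Markers of fibroblasts, endothelium and blood cells did not exceed 0.283 FPKM, apart from *COL1A1*, which reached 2.04 FPKM.

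YAP and TAZ have no DNA-binding domain of their own and act on genes mainly through the TEAD factors. The kinases of the Hippo pathway act in sequence: MST1/2 activate LATS1/2, which phosphorylate YAP and TAZ and keep them in the cytoplasm, where they are retained or degraded. The angiomotins AMOT, AMOTL1 and AMOTL2 are scaffolds of tight junctions and actin that hold YAP and TAZ outside the nucleus, the phosphatase PTPN14 binds the WW domains of YAP and restrains it, and WBP2 binds the same domains and acts as a coactivator. *AMOTL2* and *PTPN14* are also widely used as transcripts that YAP/TAZ-TEAD induces, so that the group holds regulators and targets of the same complex.

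The siRNA sites are shown because they define what the siYAP/TAZ libraries removed. Read 5′ to 3′ on the mRNA, with capitals marking the bases that the sites in *YAP1* share, they were:
siYAP_1: gacaucuuCUGGUCAGAGA
siYAP_2: CUGGUCAGAGAuacuucuu
siTAZ_1: acguugacuuaggaacuuu
siTAZ_2: agguacuuccucaaucaca
The siYAP_1 site lay at chr11:102114365-102114383 and the siYAP_2 site at chr11:102114373-102114391 (GRCh38, plus strand), both in coding exon 2 of *YAP1*, and they overlapped by 11 bases. In *WWTR1*, the siTAZ_1 site lay at chr3:149520887-149520905 on the minus strand, in the coding part of exon 7. The siTAZ_2 site spanned the junction of exons 2 and 3, with 14 bases ending exon 2 at chr3:149656876-149656889 and 5 bases opening exon 3 at chr3:149572996-149573000, and was 666 bases from the siTAZ_1 site along the transcript. The siYAP libraries thus differed in siRNA but shared most of 1 target stretch in *YAP1*, whereas the siTAZ sites did not overlap.

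In the siNC libraries, *WBP2* had the highest level of the 7 genes at 30.7 ± 0.515 FPKM (SD, n = 2), followed by *YAP1* at 19.96 ± 0.326 and *AMOTL2* at 14.5 ± 0.229 FPKM. *WWTR1* was at 6.76 ± 0.0557, *PTPN14* at 5.15 ± 0.440 and *AMOTL1* at 3.73 ± 0.0399 FPKM. *AMOT* was at 0.544 ± 0.144 FPKM, above 1.11% of the tested genes. The ranges of neighbouring genes in this order did not overlap. In the siHHEX libraries the order was less distinct, since the range of *YAP1*, 5.77 to 17.4 FPKM, overlapped that of *WWTR1*, 5.12 to 8.55 FPKM, and the range of *AMOTL2*, 3.44 to 3.93 FPKM, overlapped that of *AMOTL1*, 3.46 to 4.44 FPKM.

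**Figure D1:**
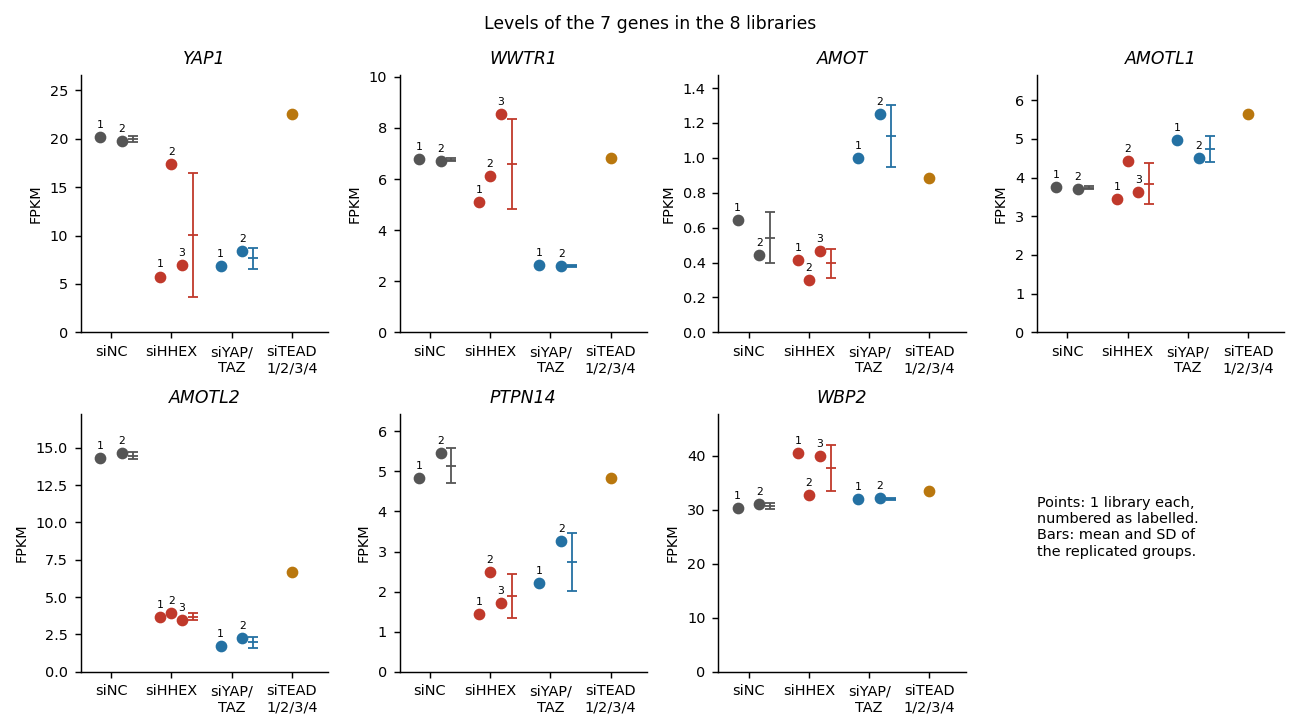
Level of each of the 7 genes (FPKM, vertical axis from 0) in each library of the 4 groups, with points numbered as the libraries are labelled and bars for the mean and SD of the replicated groups. *AMOTL2* and *PTPN14* are lower in every siHHEX and siYAP/TAZ library than in siNC, while the *YAP1* points of siHHEX lie apart, at 5.77, 17.4 and 6.93 FPKM.

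*YAP1*, the coactivator that the siRNAs target directly in siYAP/TAZ, was at 20.2 and 19.7 FPKM in siNC and at 6.90 and 8.39 FPKM in siYAP/TAZ, 38.3% of the siNC mean. In siHHEX its level was 5.77, 17.4 and 6.93 FPKM in libraries 1, 2 and 3, and in siTEAD1/2/3/4 it was 22.6 FPKM. Libraries siHHEX 1 and 3 were thus below and within the range reached by the siRNAs to *YAP1* itself, whereas siHHEX 2 was at 87.3% of the siNC mean. On the log2(FPKM + 1) scale used for every fold change here, which understates the change of low genes, *YAP1* changed by -1.07 ± 0.350 (standard error) in siHHEX, called with limma at an adjusted p of 0.0429, and by -1.28 ± 0.383 in siYAP/TAZ, not called at an adjusted p of 0.0681. The spread between the siHHEX libraries entered both standard errors, since 1 fit served all groups. Without siHHEX 2, limma gave -1.52 in siHHEX and -1.28 in siYAP/TAZ, both called (adjusted p = 0.00247 and 0.00796). Without siHHEX 1 or siHHEX 3, the siHHEX change of *YAP1* was -0.79 and -0.91 and did not pass the adjustment (adjusted p = 0.119 and 0.114 from limma). When siYAP/TAZ was fitted with siNC only, limma gave *YAP1* an adjusted p of 0.0108. The siHHEX call of *YAP1* was lost when siHHEX was fitted with siNC only (adjusted p = 0.0606 from limma), without the filter on low values (0.151), without siYAP/TAZ 1 or 2 (0.0608 and 0.0609) and without siNC 1 or 2 (0.177 and 0.149).

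*WWTR1*, the gene of TAZ, was at 6.80 and 6.72 FPKM in siNC, at 2.64 and 2.58 FPKM in siYAP/TAZ, and at 6.84 FPKM in siTEAD1/2/3/4. In siHHEX it was at 5.12, 6.12 and 8.55 FPKM, with libraries on both sides of the siNC values. In siYAP/TAZ it fell by 1.10 ± 0.195 (log2, standard error), to 38.6% of the siNC mean, which limma called at an adjusted p of 0.0156. This call was lost without the filter on low values (adjusted p = 0.0611 from limma), and without either siNC library or siYAP/TAZ 2 (adjusted p = 0.133, 0.126 and 0.10 from limma), while its size stayed between -1.11 and -1.09. In siHHEX the difference was -0.06 on the log2 scale, with a 95% interval from -0.46 to 0.35 (adjusted p = 0.820 from limma). *WWTR1* was lower in siYAP/TAZ than in siHHEX by 1.05 on the log2 scale (adjusted p = 0.00516 from limma). A change of *WWTR1* in siHHEX was thus not detectable with these libraries.

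Taken per library, the sum of *YAP1* and *WWTR1* was 27.0 and 26.4 FPKM in siNC, 10.9, 23.5 and 15.5 FPKM in siHHEX, 9.54 and 10.97 FPKM in siYAP/TAZ and 29.4 FPKM in siTEAD1/2/3/4. *YAP1* made up 74.8% and 74.6% of that sum in siNC and 72.3% and 76.5% in siYAP/TAZ, where both transcripts were lower together. It made up 53.0%, 74.0% and 44.8% in siHHEX 1, 2 and 3. In siHHEX 3, *WWTR1* was the more abundant of the pair, with 0.811 *YAP1* per *WWTR1* against a ratio of 2.95 ± 0.0240 (SD, n = 2) in siNC.

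**Figure D2:**
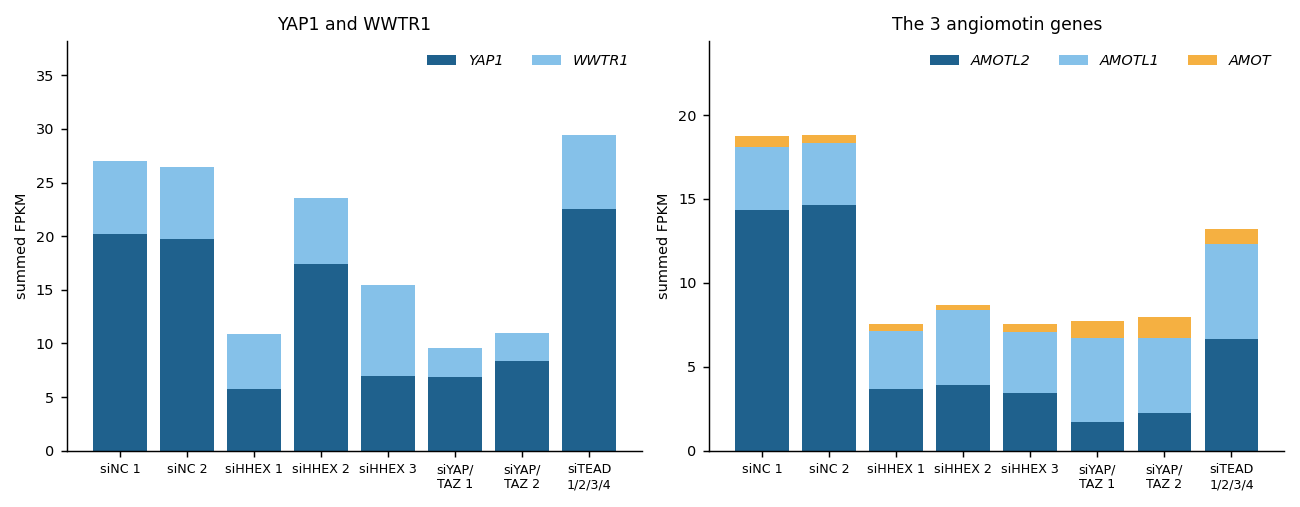
Stacked FPKM of *YAP1* and *WWTR1* (left) and of *AMOTL2*, *AMOTL1* and *AMOT* (right) in each of the 8 libraries, both vertical axes starting at 0. The share of *WWTR1* is largest in siHHEX 1 and 3, and the *AMOTL2* segment shrinks from 76.5% and 77.9% of the angiomotin sum in siNC to 22.4% and 28.0% in siYAP/TAZ.

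Among the angiomotins, *AMOTL2* was the member with the widest changes. It was at 14.3 and 14.6 FPKM in siNC, at 3.65, 3.93 and 3.44 FPKM in siHHEX, at 1.72 and 2.24 FPKM in siYAP/TAZ and at 6.65 FPKM in siTEAD1/2/3/4. No range overlapped another, and the order was siNC, siTEAD1/2/3/4, siHHEX and siYAP/TAZ. The siHHEX fall of *AMOTL2* was -1.73 ± 0.129 (log2, standard error; limma, adjusted p = 0.00108), the third lowest value of the 10677 tested genes. The siYAP/TAZ fall was -2.38 ± 0.141 (limma, adjusted p = 0.000137), where only *F3*, the gene of tissue factor, had a lower value. The direct comparison put *AMOTL2* lower in siYAP/TAZ than in siHHEX, with a log2 difference of -0.65 ± 0.129 (limma, adjusted p = 0.00721). Both falls from siNC passed the adjustment under each alternative tried, including the removal of any 1 siNC, siHHEX or siYAP/TAZ library. In siTEAD1/2/3/4, which had no replicate and so no test, the difference was -1.02 on the log2 scale, the 50th lowest value.

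*AMOTL1* was at 3.76 and 3.71 FPKM in siNC, 3.46, 4.44 and 3.62 FPKM in siHHEX, 4.98 and 4.50 FPKM in siYAP/TAZ and 5.64 FPKM in siTEAD1/2/3/4. The siHHEX values lay around those of siNC, and its siYAP/TAZ values lay above them. The differences of 0.03 in siHHEX (95% interval from -0.27 to 0.33) and 0.28 in siYAP/TAZ (95% interval from -0.05 to 0.60) did not pass the adjustment (adjusted p = 0.887 and 0.251 from limma). The siTEAD1/2/3/4 library differed by 0.49 on the log2 scale.

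*AMOT*, the founding angiomotin, was at 0.646 and 0.442 FPKM in siNC and 0.417, 0.301 and 0.467 FPKM in siHHEX, ranges that overlapped. It was at 0.9999 and 1.252 FPKM in siYAP/TAZ and 0.887 FPKM in siTEAD1/2/3/4, all above siNC. In a fit of 16276 genes without the filter, *AMOT* differed by 0.46 ± 0.101 (log2, standard error) in siYAP/TAZ and by -0.15 in siHHEX, and limma called neither (adjusted p = 0.0746 and 0.340). In that fit it was higher in siYAP/TAZ than in siHHEX by 0.61 (adjusted p = 0.0179 from limma).

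The angiomotin sum was 18.7 and 18.8 FPKM in siNC, 7.53, 8.66 and 7.53 FPKM in siHHEX, 7.70 and 7.99 FPKM in siYAP/TAZ and 13.2 FPKM in siTEAD1/2/3/4. The siHHEX and siYAP/TAZ sums overlapped, although *AMOTL2* was lower in siYAP/TAZ, because *AMOTL1* and *AMOT* had higher values there. The *AMOTL1* difference between siYAP/TAZ and siHHEX was 0.25 on the log2 scale and was not called (adjusted p = 0.155 from limma). With the correction for GC content and length described below, that difference was 0.0095 (adjusted p = 0.964 from limma). *AMOTL2* made up 76.5% and 77.9% of the sum in siNC, 48.6%, 45.3% and 45.7% in siHHEX, 22.4% and 28.0% in siYAP/TAZ and 50.5% in siTEAD1/2/3/4. *AMOTL1* was the most abundant angiomotin in siHHEX 2 and 3 and in both siYAP/TAZ libraries, with 45.9%, 51.2% and 48.1% of the sum in siHHEX 1, 2 and 3 and 64.6% and 56.3% in siYAP/TAZ.

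*PTPN14*, the gene of the phosphatase that binds YAP, was at 4.83 and 5.46 FPKM in siNC and at 1.45, 2.50 and 1.70 FPKM in siHHEX. It was at 2.23 and 3.25 FPKM in siYAP/TAZ and at 4.83 FPKM in siTEAD1/2/3/4. Every siHHEX and siYAP/TAZ library was below both siNC libraries, whereas the siTEAD1/2/3/4 library was at the lower siNC value. The siHHEX fall of *PTPN14* was -1.11 ± 0.183 (log2, standard error; limma, adjusted p = 0.00638), a call lost without siNC 1 or siNC 2 (adjusted p = 0.0747 and 0.0739 from limma). Its siYAP/TAZ difference was -0.73 ± 0.200, not called by limma at an adjusted p of 0.0558 but called without siHHEX 2 (adjusted p = 0.0321). The difference between siYAP/TAZ and siHHEX was 0.38 on the log2 scale, with a 95% interval from -0.03 to 0.79 (adjusted p = 0.125 from limma). That difference was 0.58 without siYAP/TAZ 1, 0.18 without siYAP/TAZ 2, and 0.52 and called without siHHEX 2 (adjusted p = 0.0299 from limma). With the correction for GC content and length described below, it was 0.0034 (adjusted p = 0.991 from limma). The siTEAD1/2/3/4 library differed from siNC by -0.08.

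*WBP2*, the gene of the WW-binding coactivator, was at 30.4 and 31.1 FPKM in siNC, 40.5, 32.8 and 40.0 FPKM in siHHEX, 31.9 and 32.1 FPKM in siYAP/TAZ and 33.4 FPKM in siTEAD1/2/3/4. All 6 knockdown libraries lay above siNC, and siHHEX 1 and 3 were the highest. The difference was 0.28 on the log2 scale in siHHEX (95% interval from 0.0030 to 0.56) and 0.06 in siYAP/TAZ (95% interval from -0.25 to 0.37), neither called by limma (adjusted p = 0.103 and 0.820). Without siHHEX 2, the siHHEX difference was 0.38 and passed (adjusted p = 0.0171 from limma). With the correction for GC content and length described below, it turned to -0.047 (adjusted p = 0.796 from limma), and the siYAP/TAZ difference to -0.016.

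**Figure D3:**
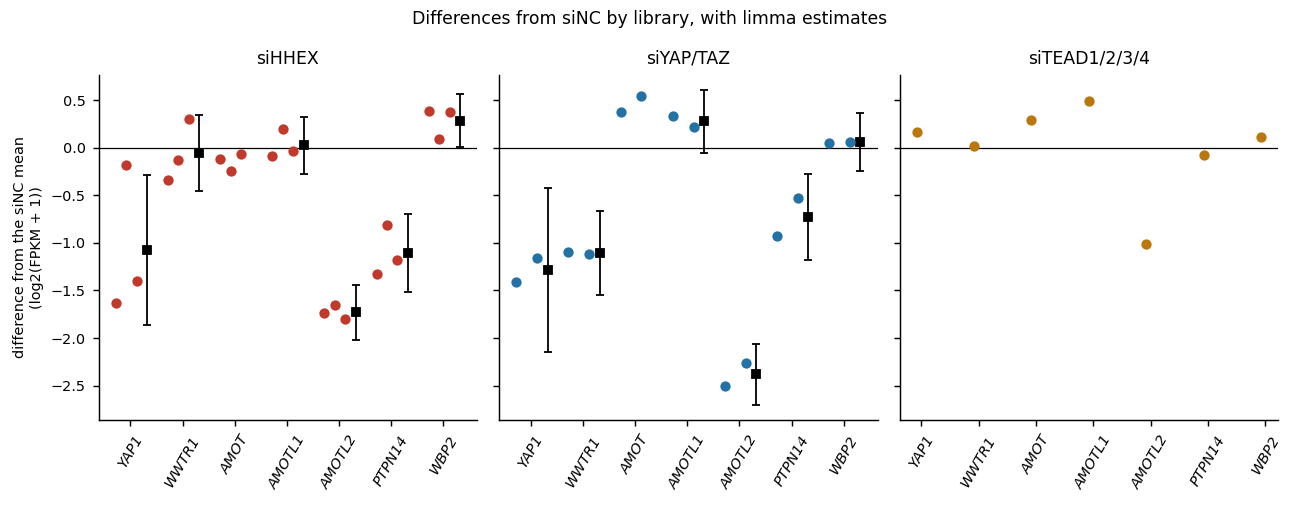
Difference of each library from the siNC mean on the log2(FPKM + 1) scale (vertical axis) for the 7 genes in siHHEX, siYAP/TAZ and siTEAD1/2/3/4; points are libraries, squares with bars are limma estimates with 95% intervals, and *AMOT* and the siTEAD1/2/3/4 library have no interval. The 3 siHHEX points of *AMOTL2* lie between -1.80 and -1.65, and those of *YAP1* between -1.63 and -0.19.

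Of the 6 tested genes, 3 were called lower in siHHEX at an adjusted p under 0.05 from limma (*AMOTL2*, *PTPN14* and *YAP1*) and 0 higher (1 at an unadjusted p under 0.05, *WBP2*), against 16.9% of all tested genes called lower and 16.0% called higher. The study's thresholds, a fold over 2 with an unadjusted p under 0.05, marked the same 3 as lower, against 0.927% of all tested genes. The study names DESeq, whereas here the thresholds were applied to limma values on the log2(FPKM + 1) scale. In that form they are called the study's criterion. In siYAP/TAZ, 2 were called lower by adjusted p (*AMOTL2* and *WWTR1*) and 0 higher, also 0 at an unadjusted p under 0.05, against 2.13% and 6.15% of all tested genes. The study's criterion called 3 lower in siYAP/TAZ, *YAP1* joining them, against 0.431% of all tested genes. *YAP1* and *WWTR1* are the siRNA targets there, and of the 4 tested genes that were not targeted, 1 (*AMOTL2*) was called lower by either rule, with a median log2 fold change of -0.34. Without siNC 1 or siNC 2, *AMOTL2* alone was called by adjusted p in siHHEX and in siYAP/TAZ, and the calls over all tested genes went from 3518 to 19 and 27 in siHHEX and from 884 to 22 and 15 in siYAP/TAZ. In siTEAD1/2/3/4, only *AMOTL2* was past 2-fold lower, against 0.478% of all tested genes. Between siYAP/TAZ and siHHEX, *AMOTL2* and *WWTR1* were called lower in siYAP/TAZ and 0 of the 6 higher by adjusted or unadjusted p, against 13.5% and 25.9% of all tested genes. Over the 6 genes, log2 fold changes had a median of -0.56 in siHHEX, -0.92 in siYAP/TAZ and 0.07 in siTEAD1/2/3/4, and that of all tested genes -0.01, 0.08 and 0.06. The comparisons with siNC share its libraries. In siYAP/TAZ against siHHEX the median of all tested genes was 0.13, and scaling each library to 1 median moved the calls of that comparison from 1437 lower and 2763 higher to 2508 lower and 1385 higher, those of siYAP/TAZ against siNC from 227 and 657 to 345 and 333, and those of siHHEX against siNC from 1806 and 1712 to 1440 and 2210. With that scaling *AMOTL2* and *WWTR1* were lower in siYAP/TAZ than in siHHEX by 0.83 and 1.22 on the log2 scale (adjusted p = 0.00282 and 0.00278 from limma), and *WBP2* was also called, at -0.40 (adjusted p = 0.0453).

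**Figure D4:**
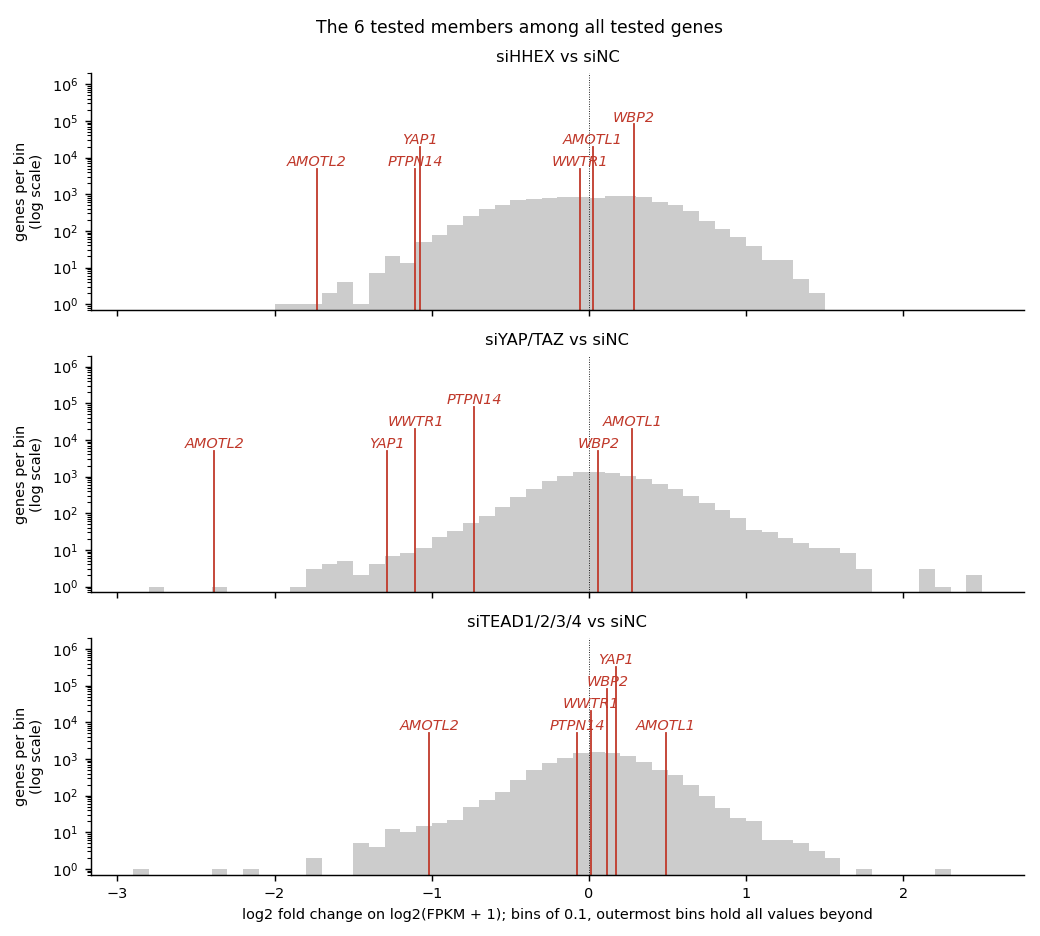
Number of tested genes (log axis) per bin of 0.1 in log2 fold change for siHHEX, siYAP/TAZ and siTEAD1/2/3/4 against siNC, with red lines at the 6 tested genes, their heights serving only to separate the names. *AMOTL2* lies in the left tail of all 3 distributions, and *YAP1* and *PTPN14* lie in it in siHHEX and siYAP/TAZ.

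A property of the siHHEX libraries ran through the values of these genes. A smooth trend on the GC content and length of the transcripts took up 47.3%, 34.3% and 57.3% of the variance of the changes in siHHEX 1, 2 and 3, against 2.22% and 0.664% in siYAP/TAZ 1 and 2, 8.98% in siTEAD1/2/3/4 and 5.95% in siNC. The median siHHEX change rose from -0.47 in the bin of tested genes with the lowest GC content to 0.43 in the highest. The transcripts of *WWTR1* and *YAP1* have GC contents of 42.2% and 43.5%, in the low part of that range, and those of *AMOTL2* and *WBP2* 56.3% and 57.6%, in the high part. *AMOTL2* thus fell in siHHEX among genes of its GC content that were mostly higher. With the trend taken off each library, the siHHEX changes were -1.91 for *AMOTL2* and -0.93 for *PTPN14* (adjusted p = 0.00144 and 0.0193 from limma), and *YAP1* at -0.76 was no longer called (adjusted p = 0.161). The siHHEX difference of *WBP2* became -0.05 and that of *WWTR1* 0.31 (adjusted p = 0.796 and 0.366 from limma). In siYAP/TAZ the same correction gave -1.40 for *YAP1* and -0.92 for *PTPN14*, both called (adjusted p = 0.0350 and 0.0178 from limma). After the correction 3.19% of all tested genes with both values were called lower and 3.56% higher in siHHEX, 6.14% and 5.29% in siYAP/TAZ, and 5.53% and 3.35% in siYAP/TAZ against siHHEX. What produced the trend was not tested.

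**Figure D5:**
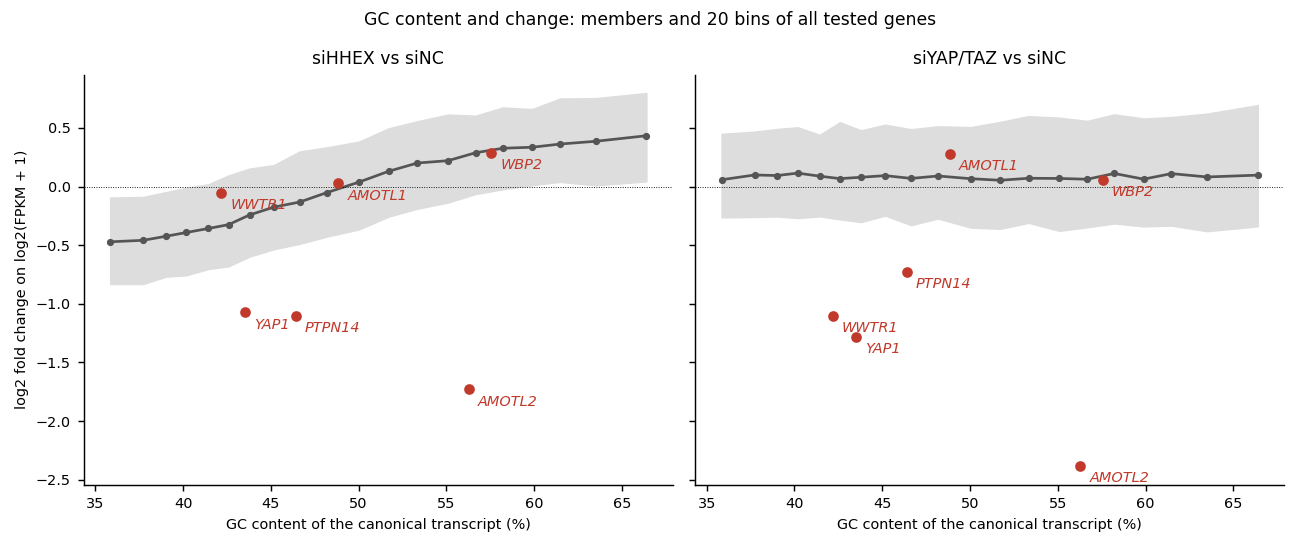
Log2 fold change against the GC content of the canonical transcript (%) for siHHEX (left) and siYAP/TAZ (right); the line is the median and the band the range from the first to the ninth decile of the tested genes in 20 bins of equal size, and red points are the 6 tested genes. The line climbs from -0.47 to 0.43 in siHHEX and is flat in siYAP/TAZ, and *AMOTL2*, *YAP1* and *PTPN14* lie below the band in both panels.

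The knockdowns were read next to these genes. *HHEX* was at 8.60 and 9.06 FPKM in siNC and at 3.25, 3.54 and 1.85 FPKM in siHHEX 1, 2 and 3, which left 36.8%, 40.1% and 20.9% of the siNC mean. In siYAP/TAZ it was at 4.80 and 7.12 FPKM, also below siNC, a difference of -0.52 that was not called (95% interval from -1.05 to 0.02, adjusted p = 0.196 from limma), and in siTEAD1/2/3/4 at 7.75 FPKM. The *YAP1* levels of the siHHEX libraries were 28.9%, 87.3% and 34.7% of its siNC mean, so that siHHEX 1 and 2 had similar *HHEX* and different *YAP1* levels. In siTEAD1/2/3/4, *TEAD4* was at 5.56 FPKM against 20.8 FPKM in siNC, *TEAD1* at 9.02 against 18.6 FPKM and *TEAD2* at 2.73 against 3.78 FPKM. *TEAD3* was higher there, at 9.08 against 7.18 FPKM, so that the library labelled siTEAD1/2/3/4 kept *TEAD* transcripts. The DNA-binding partners of YAP also differed in the other knockdowns. *TEAD1* fell in siHHEX by 1.25 on the log2 scale and *TEAD2* rose by 0.78 (adjusted p = 0.00641 and 0.00709 from limma), and *TEAD4* fell in siYAP/TAZ by 0.63 (adjusted p = 0.0250). Of the 5 tested genes of the TEAD and VGLL list, these were the ones called against siNC, and the siHHEX counts of 1 lower and 1 higher were near the 16.9% and 16.0% of all tested genes. The siYAP/TAZ counts were 1 lower and 0 higher, against 2.13% and 6.15% of all tested genes. After the GC and length correction *TEAD2* in siHHEX was at 0.47 and no longer called (adjusted p = 0.0739 from limma). *TEAD1* at -0.91 and *TEAD4* at -0.51 were then called lower (adjusted p = 0.0189 and 0.0310 from limma), against 3.19% of all tested genes. *TEAD1* was higher and *TEAD4* lower in siYAP/TAZ than in siHHEX, by 1.06 and -0.53 (adjusted p = 0.00711 and 0.0113 from limma), and after the correction neither was called (adjusted p = 0.0602 and 0.217). These counts of 1 higher and 1 lower were near the 25.9% and 13.5% of all tested genes, which became 3.35% and 5.53% after the correction. *VGLL1* and *VGLL2* were listed at 0 in all libraries.

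Of 20 genes of the Hippo kinase core and its upstream regulators, 10 fell in siHHEX and 0 rose (0 higher at an unadjusted p under 0.05 from limma), with a median log2 fold change of -0.46, against 16.9% and 16.0% of all tested genes. *SAV1*, the scaffold of the MST kinases, fell by 0.90, the LATS cofactor *MOB1A* by 0.83, the kinase gene *LATS2* by 0.82 and the STRIPAK subunit *STRN3* by 0.80 (adjusted p = 0.00461, 0.0459, 0.00719 and 0.0132 from limma). After the GC and length correction 2 of the 20 were called lower, *SAV1* and *LATS2*, against 3.19% of all tested genes, with a median of -0.19. In siYAP/TAZ, *SAV1*, *LATS2* and *NF2*, the gene of Merlin, fell by 0.89, 0.72 and 0.62, and the kinase gene *MAP4K4* rose by 0.59 (adjusted p = 0.0115, 0.0298, 0.0397 and 0.0301 from limma), against 2.13% of all tested genes lower and 6.15% higher. The correction gave 5 of the 20 called lower and 0 higher there, against 6.14% and 5.29% of all tested genes (1 higher at an unadjusted p under 0.05), with *MAP4K4* at 0.45 (adjusted p = 0.0525 from limma). None of the 20 was past 2-fold in siTEAD1/2/3/4. Between siYAP/TAZ and siHHEX, 8 were called higher in siYAP/TAZ and 1 lower, against 25.9% and 13.5% of all tested genes. After the correction 0 were called, against 3.35% of all tested genes higher and 5.53% lower, with 2 higher and 4 lower at an unadjusted p under 0.05.

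The angiomotins are themselves controlled by ubiquitin ligases, tankyrases and polarity proteins. Of 13 tested genes of such partners, 5 fell and 1 rose in siHHEX, against 16.9% and 16.0% of all tested genes, with medians of -0.25 there and 0.16 in siYAP/TAZ. The share that rose was below that of all tested genes. The ligase gene *ITCH* fell by 0.76, *LIN7C* by 0.68, the tankyrase gene *TNKS2* by 0.66, and the polarity gene *CRB3* rose by 0.66 (adjusted p = 0.0126, 0.0134, 0.0232 and 0.00926 from limma). With the GC and length trend removed, 0 of the 13 were called in siHHEX, against 3.19% of all tested genes lower and 3.56% higher. At an unadjusted p under 0.05, 1 was lower. None of the 13 was called in siYAP/TAZ, against 2.13% of all tested genes lower and 6.15% higher, so that this count was near the background. There 5 were higher and 0 lower at an unadjusted p under 0.05, and none was past 2-fold in siTEAD1/2/3/4. Between siYAP/TAZ and siHHEX 8 of the 13 were higher in siYAP/TAZ, against 25.9% of all tested genes. Among them were *TNKS2* by 0.93 and the deubiquitinase gene *USP9X* by 0.79 (adjusted p = 0.00656 and 0.00482 from limma). After the correction 0 were called, against 3.35% of all tested genes higher and 5.53% lower, with 2 higher at an unadjusted p under 0.05.

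Of 20 tested genes of other proteins that bind YAP or TAZ, 6 fell and 1 rose in siHHEX, and 1 fell and 1 rose in siYAP/TAZ, with medians of -0.26 and -0.08. Of all tested genes 16.9% fell and 16.0% rose in siHHEX, and 2.13% fell and 6.15% rose in siYAP/TAZ, so that the siYAP/TAZ counts were near the background and the siHHEX rise was below it. *SMAD3*, a transducer of TGF-β, changed by -1.0005 in siHHEX and by -0.87 in siYAP/TAZ (adjusted p = 0.00387 and 0.0137 from limma). *WBP1*, which like WBP2 was named for binding WW domains, rose by 1.02 and 1.41 (adjusted p = 0.0100 and 0.0111 from limma), and differed by 1.02 in siTEAD1/2/3/4. *TJP1*, the gene of the junction protein ZO-1, fell by 0.88 in siHHEX, and *SMAD7* fell by 0.83 (adjusted p = 0.00492 and 0.00834 from limma). After the correction 3 of the 20 were called lower and 0 higher in siHHEX, against 3.19% and 3.56% of all tested genes, with 1 higher at an unadjusted p under 0.05, and *WBP1* was at 0.54 (adjusted p = 0.0980 from limma). In siYAP/TAZ 3 were then called lower and 1 higher, against 6.14% and 5.29% of all tested genes.

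*AMOTL2* and *PTPN14* belong to a signature of 22 YAP/TAZ target genes, of which 16 were tested. In siHHEX 13 of the 16 fell, in siYAP/TAZ 9 fell, and in siTEAD1/2/3/4 4 were past 2-fold lower, against 16.9%, 2.13% and 0.478% of all tested genes, with median log2 fold changes of -0.88, -0.72 and -0.64, and 0 were called higher, also 0 at an unadjusted p under 0.05 in siHHEX and siYAP/TAZ. The log2 fold changes of *F3* were -1.95 in siHHEX and -2.75 in siYAP/TAZ, those of *AXL*, a receptor tyrosine kinase gene, -1.51 and -1.54, and those of *CYR61*, a gene of a secreted matricellular protein, -1.31 and -1.63 (adjusted p at most 0.0257 from limma). After the GC and length correction, 11 of the 16 were called lower in siHHEX and 12 in siYAP/TAZ, against 3.19% and 6.14% of all tested genes. Between siYAP/TAZ and siHHEX, 3 of the 16 were called lower in siYAP/TAZ (*F3*, *FJX1* and *AMOTL2*) and 2 higher, against 13.5% and 25.9% of all tested genes, so that the first count was near the background and the second below it. Among these genes, *AMOTL2* had the second lowest value in siHHEX and in siYAP/TAZ, and *PTPN14* was the one of the 6 lowest in siHHEX with a difference near 0 in siTEAD1/2/3/4. Outside those 6, *LATS2* was at -0.82 in siHHEX, -0.72 in siYAP/TAZ and 0.02 in siTEAD1/2/3/4.

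The promoters of the 7 genes were searched for the core letters GGAATG that TEAD factors bind. The search covered both strands from 250 bases before to 50 bases after each RefSeq start site (GRCh38.p14). The motif was present in 3 of the 10 promoters of the 7 genes, 1 each in *YAP1*, *AMOTL2* and *PTPN14*. In the windows of 30 bases around it, capitals mark the motif as read on the strand of the gene:
YAP1: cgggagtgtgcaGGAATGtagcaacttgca
AMOTL2: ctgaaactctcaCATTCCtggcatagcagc
PTPN14: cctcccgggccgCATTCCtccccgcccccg
The *YAP1* window lay at chr11:102110273-102110302 on the plus strand, with 156 bases between motif and start site. The *AMOTL2* window lay at chr3:134374499-134374528 on the minus strand, 63 bases before the downstream of its start sites, and its other promoter held no match. The *PTPN14* window lay at chr1:214551785-214551814 on the minus strand, 194 bases before the start site. The same letters occurred in 14.0% of 35116 promoters of that length and in 11.2% of the 12303 that belong to tested genes. The promoters of *WWTR1*, *AMOT*, *AMOTL1* and *WBP2* did not hold these letters in this window. Of the genes with a match, *AMOTL2* differed by -1.02 in siTEAD1/2/3/4, *YAP1* by 0.17 and *PTPN14* by -0.08 on the log2 scale. A match is a description of the sequence, and binding was not examined here.

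Over the 8 libraries, the tested genes whose log2(FPKM + 1) followed each of these genes most closely were listed by Pearson's r, as a description over libraries that share conditions. *AMOTL2* was followed by *PIM1*, *GADD45B* and *CYR61* (r = 0.978, 0.972 and 0.969). *GADD45B* was at 16.7 FPKM in siNC, 7.82 in siHHEX, 5.19 in siYAP/TAZ and 8.79 in siTEAD1/2/3/4, the same order of conditions as *AMOTL2*. *PTPN14* was followed by *WDFY1*, *USP43* and *ZC3H15* (r = 0.989, 0.985 and 0.979), of which *WDFY1* was at 14.4 FPKM in siNC, 6.70 in siHHEX, 9.01 in siYAP/TAZ and 14.0 in siTEAD1/2/3/4. *YAP1* was followed by *RFWD3*, *MRPL44* and *ARHGEF7* (r = 0.983, 0.971 and 0.963), and *WWTR1* by *HIC2*, *REXO4* and *SH3BP1* (r = 0.965, 0.963 and 0.961). *AMOTL1* was followed by *FKBP5*, *FOPNL* and *SMC1A* (r = 0.971, 0.967 and 0.965), and *WBP2* by *CHMP6*, *PSMB4* and *IP6K1* (r = 0.992, 0.991 and 0.987). *CYR61* was at 5.99 FPKM in siTEAD1/2/3/4 against 10.2 FPKM in siNC.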

How the data were processed

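RNA of 8 HCT-116 libraries was sequenced on an Illumina HiSeq instrument. The values deposited by the authors are in FPKM, 1 per gene in each library. The submitters' processing notes name Trimmomatic 0.36, HISAT2 2.0.5, Cufflinks 2.2.1 and HTSeq 0.9.1, the paper names DESeq, and the genome build and annotation of the RNA-seq are not given in the sources used here. No scaling between libraries is stated. FPKM is divided by the library total, so that a change of abundant genes shifts all others, and the depth behind a value is unknown. Each library had 20030 rows, of which 27 were named by a date and were not renamed.

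The tests used log2(FPKM + 1) and limma 3.58.1 (R 4.3.3) for genes that reached 1 FPKM in 2 or more libraries, with 4 groups, 8 libraries and a variance trend in 1 model, and p values were adjusted with the Benjamini-Hochberg method over the 10677 genes. The single siTEAD1/2/3/4 library gave differences only, called when past 2-fold. The correction for GC content and length took natural splines of 4 degrees of freedom off each library, for the 10617 tested genes with both values in GENCODE 44. Alternatives changed the pseudocount (0.1), the filter (none), the groups in the model (the pair compared), the scaling (equal medians) and the block (replicate number). Others applied that correction with and without the block, and left out each siNC, siHHEX and siYAP/TAZ library in turn.

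The members and gene lists were chosen with earlier results of these data known. Named were the 7 genes, up to 4 called genes with the largest change per list and comparison, the 3 genes most like each tested member, and the siRNA targets. Cell markers were named too, and *VGLL1* and *VGLL2* after their values were seen. The siRNA sequences were matched to GRCh38 transcripts. The siTAZ_2 site equals the sequence in the study's methods and is 2 edits from its supplementary copy. Promoters were from RefSeq, with an entry for all 7 genes. Tables and figures used Python 3.11.15, pandas 2.3.3 and matplotlib 3.10.9.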

Additional observations from a re-analysis of the deposited data

How the results depend on the processing

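Of 252 values of single genes in the 3 comparisons of replicated groups under the alternatives, 203 kept their direction and their side of the threshold. *AMOTL2* kept its direction in all of them, and its differences from siNC were called in all, while its difference between siYAP/TAZ and siHHEX had an adjusted p of 0.0555 from limma with the GC and length correction and the block. The causes of the shifts were not tested. The directions that turned were those of differences that were not called. For *WWTR1* in siHHEX the value became 0.015 with median scaling, 0.31 with the GC and length correction, 0.074 with that correction and the block, and lay between -0.23 and 0.088 with 1 library left out. For *WBP2* it became -0.047 in siHHEX and -0.016 in siYAP/TAZ with the correction, -0.045 and -0.016 with the block added, -0.047 in siYAP/TAZ with median scaling, and 0.031 and 0.029 between siYAP/TAZ and siHHEX with the correction and with the block added. The latter gave -0.0076 for both *AMOTL1* and *PTPN14* in that comparison. With 1 library left out, *AMOTL1* in siHHEX lay between -0.060 and 0.083, and *YAP1* between siYAP/TAZ and siHHEX lay between -0.49 and 0.23.

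The replicate numbers gave no pairing, since the deviations of same-numbered libraries from their groups were correlated at -0.070 to 0.022. A block on the replicate number also takes siHHEX 3, which has no same-numbered partner, out of the comparisons. With it *YAP1* was at -0.91 in siHHEX (adjusted p = 0.0704 from limma), the estimate also obtained without siHHEX 3 and no block (adjusted p = 0.114), and *YAP1* and *PTPN14* were called lower in siYAP/TAZ (adjusted p = 0.0407 and 0.0295), which made 4 of the 6 genes called there. Over all tested genes this fit gave 2062 calls in siHHEX, against 3518 without the block and 2514 without siHHEX 3 and no block, and 1031 in siYAP/TAZ (252 of them lower) against 884 (227 lower). The count of 4 also came with only the compared groups fitted, with the correction, and with the correction and the block, where 539, 652 and 488 of all tested genes were lower, and was 1 without the filter and 1 to 4 with 1 library left out (1 without either siNC library or siYAP/TAZ 2, and 4 without siHHEX 2).

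In siHHEX the count called lower was 1 to 3 with 1 library left out (1 without either siNC library) and that called higher 0 to 1. By the study's criterion it was 1 with the correction, 1 with the correction and the block, and 1 to 3 with 1 library left out (1 without siHHEX 1). Between siYAP/TAZ and siHHEX the correction with the block left 1 called lower, no filter gave 1 called higher (*AMOT*), and leaving out 1 library gave 0 to 2.

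Over all tested genes, siHHEX had 1907 calls without the filter, 717 with the correction, 165 with the correction and the block, and 19 to 4839 with 1 library left out, the lowest without siNC 1. For siYAP/TAZ these were 320 without the filter, 1759 with only the compared groups and 15 to 1317 with 1 library left out, against 884. For siYAP/TAZ against siHHEX they were 943 with the correction, 204 with the block added and 1026 to 5161 with 1 library left out, against 4200. The study's criterion gave 174 genes in siHHEX and 466 with a pseudocount of 0.1, 56 with the correction, 63 with the block added and 140 to 352 with 1 library left out. In siYAP/TAZ it gave 168, and 500 with that pseudocount and 166 to 366 with 1 library left out. In siTEAD1/2/3/4, *WWTR1* turned from 0.015 to -0.047 with median scaling and *WBP2* from 0.12 to -0.014 with the correction, and 83 genes were past 2-fold lower with that pseudocount, against 51.

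For the lists, the study's criterion called 0 genes of the Hippo core in siHHEX and 0 in siYAP/TAZ, 1 and 0 of the TEAD and VGLL genes, 0 of the angiomotin partners in siHHEX, 2 and 1 of the other binding proteins, and 6 of the target signature in siHHEX. Of the 10677 tested genes, that criterion called 174 in siHHEX and 168 in siYAP/TAZ. The correction, added for the lists after seeing the data, called 2 of the Hippo core in siHHEX, 0 of the angiomotin partners, 3 of the other binding proteins and 4 of these in siYAP/TAZ (3 lower and 1 higher). Of the 10617 tested genes with GC content and length, 717 were called after it in siHHEX and 1214 in siYAP/TAZ. In siHHEX 1 of the angiomotin partners was lower at an unadjusted p under 0.05 from limma. Between siYAP/TAZ and siHHEX the correction called 0 of the Hippo core, 0 of the TEAD and VGLL genes, 0 of the angiomotin partners, 2 of the other binding proteins and 2 of the signature, with 6, 1 and 2 genes of the first 3 lists at an unadjusted p under 0.05. In that comparison it called 943 of the 10617 genes. With 2 or 3 libraries a group and no read counts, the depth behind a value is unknown and the precision of low genes such as *AMOT* cannot be given. The single siTEAD1/2/3/4 library has no replicate check, and a library left alone in its group was assumed to vary like the other groups.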
